A study of Mus musculus with 37 samples.

Results

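The cell proliferation genes of this study of the mouse heart after cardiac arrest are 44 genes, found by their symbols in a table of 56748 genes. They fall into 14 S phase genes and 30 mitotic genes. A dividing cell first copies its DNA in S phase, using replication helicases, a sliding clamp and enzymes that supply deoxynucleotides, and then condenses, aligns and separates its chromosomes in mitosis under the control of cyclins, kinases and the anaphase-promoting complex. Transcripts of these genes are scarce in cells that have left the cycle, and most cardiomyocytes of the adult heart have done so, while fibroblasts, endothelial cells and macrophages of the heart can divide. In whole tissue a low level of such a transcript can come from a small number of cells.

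RNA was sequenced from 37 left ventricular samples of C57BL/6J mice of both sexes, 8 to 10 weeks old, and the labels give neither sex nor animal for a library. The 5 Naïve samples came from anesthetized mice without ventilation or injection. Arrest mice were ventilated, received 40 µL of 0.5 M potassium chloride into the left ventricle, and after 8 min of asystole were given 500 µL of adrenaline at 15 µg/mL and chest compressions. Adr mice, which the labels call sham, were ventilated and received saline in place of potassium chloride and the same adrenaline 8 min later. They share the puncture, the ventilation and the drug with the Arrest mice, but not the potassium chloride, the arrest or the chest compressions. Both arms were sampled on days 0.5, 1, 3 and 7, with 4 samples a group, and the apex, where the needle had passed, was discarded. The labels do not say which libraries came from separate animals, so that p-values measure only the spread between these samples.

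Values are FPKM, fragments on a gene scaled to its length and to a factor of the library that is not its depth alone. The median ratio of a library to the mean over libraries was the same in all 37 (1.0131). The deposited values had therefore already been brought to a common median ratio. Libraries held 13.2 to 30.2 M fragments on genes (median 14.9 M), and at this depth 33 of the 44 genes had a median below 1 FPKM over the 37 libraries. Before the results 2 libraries have to be set apart. The third library of the Adr 3 d group (replicate 3) had a mitochondrial share of fragments of 9.36%, against 20.8 to 30.9% in the other 36, and a sum of 8 cardiomyocyte markers (Myh6, Tnnt2, Tnni3, Actc1, Myl2, Ryr2, Actn2 and Pln) of 3377 FPKM, against 7302 to 16045 FPKM in 35 others. The methods of the study state that a poor-quality Adr sample of day 3 was left out, without naming it, and the labels mark none. The fourth library of the Arrest 3 d group (replicate 4) was the deepest, with a cardiomyocyte sum of 9036 FPKM. Naïve replicate 4 had the fewest genes above 0 (13475), and 14 of the 44 genes were at 0 in it.

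Because mitotic genes are known to share promoter elements, a CCAAT box read by NF-Y and a cell cycle genes homology region (CHR) read by the DREAM and MuvB complexes, and S phase genes are known for E2F sites, the promoters of these genes were read from RefSeq (GRCm38.p6), from 250 bases before to 50 after the start of transcription. The table held 37 of the 44 genes with 40 promoters. Aurkb, Ccna2, Ccne2, Kif20a, Mcm4, Spc24 and Tpx2 were not matched. The motifs searched on both strands were TTTCCCGC, TTTGGCGC, TTTCGCGC and TTTGCCGC for E2F, CCAAT for NF-Y, and TTTGAA and TTTAAA for the CHR. E2F letters on opposite strands can overlap one another, and TTTAAA reads the same on both strands. Shown are the promoters of Cenpf, Top2a and Mki67, whose levels lay below Naïve in early Arrest. Those of Cdk1, which lay above Naïve in Arrest on day 3, and of Mcm6, an S phase gene with E2F letters and no CHR, follow. Motifs are in capitals, and the sense strand, which reads like the RNA, is written 5′ to 3′.
Cenpf: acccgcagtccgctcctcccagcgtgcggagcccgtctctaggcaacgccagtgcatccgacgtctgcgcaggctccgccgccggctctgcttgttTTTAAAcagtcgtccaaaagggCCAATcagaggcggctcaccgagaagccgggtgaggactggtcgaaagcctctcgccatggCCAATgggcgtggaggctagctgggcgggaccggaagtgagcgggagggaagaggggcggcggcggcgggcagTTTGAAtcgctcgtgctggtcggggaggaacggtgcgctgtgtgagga
Top2a: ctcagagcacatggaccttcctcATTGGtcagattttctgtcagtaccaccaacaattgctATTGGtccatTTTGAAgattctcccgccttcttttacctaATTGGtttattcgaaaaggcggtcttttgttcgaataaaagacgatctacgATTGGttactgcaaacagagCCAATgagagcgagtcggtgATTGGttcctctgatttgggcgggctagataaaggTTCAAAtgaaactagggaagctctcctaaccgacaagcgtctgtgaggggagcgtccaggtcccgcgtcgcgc
Mki67: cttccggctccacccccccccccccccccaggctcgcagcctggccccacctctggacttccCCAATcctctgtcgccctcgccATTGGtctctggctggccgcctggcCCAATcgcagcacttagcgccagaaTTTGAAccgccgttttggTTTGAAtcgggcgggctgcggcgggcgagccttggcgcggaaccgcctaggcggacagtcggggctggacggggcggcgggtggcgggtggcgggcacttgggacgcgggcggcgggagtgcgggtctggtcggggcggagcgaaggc
Cdk1: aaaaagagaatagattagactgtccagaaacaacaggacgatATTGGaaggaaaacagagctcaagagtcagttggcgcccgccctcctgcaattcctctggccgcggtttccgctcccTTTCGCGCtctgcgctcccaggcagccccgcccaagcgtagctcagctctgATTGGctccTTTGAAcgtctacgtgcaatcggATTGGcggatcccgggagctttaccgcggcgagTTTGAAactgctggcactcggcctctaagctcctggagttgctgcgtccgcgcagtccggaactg
Mcm6: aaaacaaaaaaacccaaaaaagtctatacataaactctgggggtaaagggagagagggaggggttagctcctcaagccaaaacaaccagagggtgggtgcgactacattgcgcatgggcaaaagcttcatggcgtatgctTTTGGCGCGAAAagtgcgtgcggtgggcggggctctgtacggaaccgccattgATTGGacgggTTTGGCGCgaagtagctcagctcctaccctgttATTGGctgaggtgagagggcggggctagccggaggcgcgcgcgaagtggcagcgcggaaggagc

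All 5 are on the minus strand, Cenpf at chr1:189688037-189688336, Top2a at chr11:99024140-99024439, Mki67 at chr7:135716330-135716629, Cdk1 at chr10:69352863-69353162 and Mcm6 at chr1:128359656-128359955. The Cenpf promoter held CCAAT letters at positions -132 and -71 from the start and CHR letters at -154 and 3. The Mki67 promoter held CHR letters at -116 and -98, and the Top2a promoter at -179 and -23 beside 6 CCAAT boxes. In Cdk1 the E2F letters stood at -131 and the CHR letters at -71 and -15. Mcm6 held E2F letters at -110, -106 and -47, of which the pair at -110 and -106 overlap on opposite strands.

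Over all members, CHR letters were found in 25 of 27 mitotic promoters (92.6%) and 5 of 13 S phase promoters (38.5%), against 27.6% of 32851 mouse promoters of the same length. A CCAAT box stood in 24 of 27 mitotic promoters (88.9%) and 9 of 13 S phase promoters (69.2%), against 37.4%. Both stood together in 23 of 27 mitotic promoters (85.2%) and 3 of 13 S phase promoters (23.1%), against 10.7%. E2F letters were in 4 of 13 S phase promoters (30.8%), in 2 of 27 mitotic promoters (7.41%) and in 2.26% of all. The promoters of E2f1, Tyms and Nusap1 held none of these letters, which says only that the letters are not in this window.

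The 44 genes spanned a wide range of levels. Pcna, the sliding clamp of the replication fork, was the most abundant with a median of 12.03 FPKM over the 37 libraries, followed by Cenpa, the histone H3 variant of centromeres, with 5.46 FPKM. The helicase subunits Mcm6, Mcm7, Mcm4 and Mcm3 had medians of 3.20, 2.76, 2.26 and 2.24 FPKM. The remaining genes with medians of at least 1 FPKM were Rrm1 (1.38), Cdc20 (1.33), Spc24 (1.17), Mcm2 (1.10) and Mcm5 (1.01). The median gene had 1.05 FPKM among the S phase genes and 0.274 FPKM among the mitotic genes, both being levels per gene length.

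At the low end, Ncapg, a subunit of condensin, was at 0 in 18 libraries, Ccnb1, the cyclin that starts mitosis with Cdk1, in 15, the checkpoint kinase gene Bub1 in 12, and the kinase genes Aurkb and Plk1 in 11 and 10. A value of 0 allowed up to 3 fragments, which is 0.0358 to 0.0829 FPKM for the 5 genes with zeros among those described below library by library, counting error only. A filter of at least 0.5 FPKM in at least 4 libraries kept 16530 genes and 36 of the 44, all 14 S phase genes and 22 of the 30 mitotic genes. The 8 that stayed below it, and have no test, were Ccnb1, Bub1, Cenpe, Hmmr, Kif11, Kif23, Ncapg and Prc1.

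**Figure D1:**
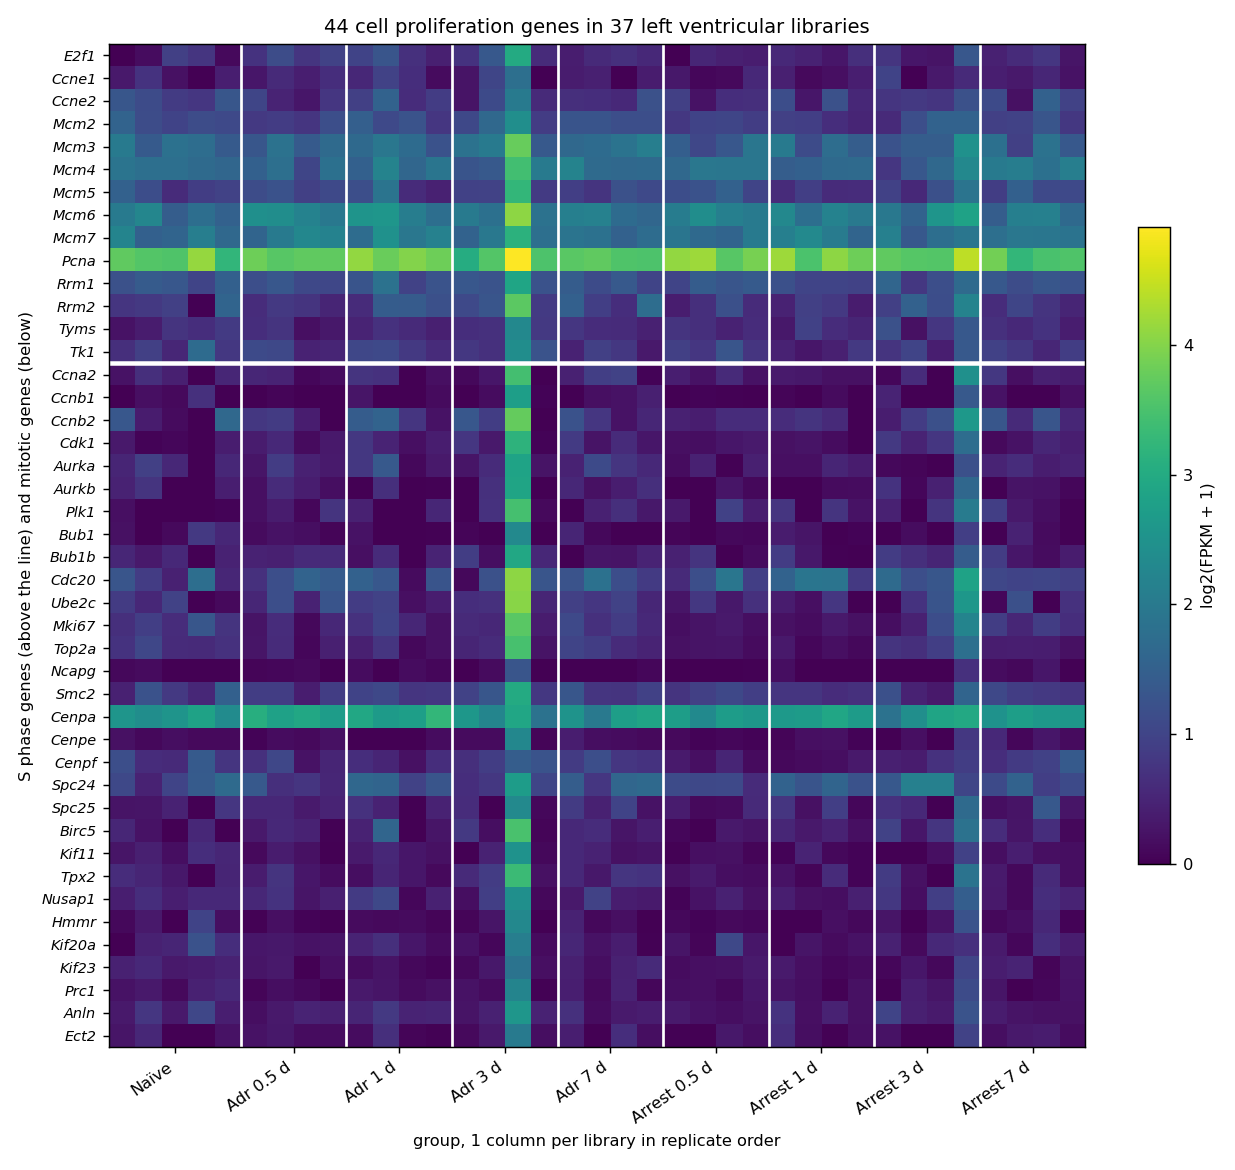
Level of each of the 44 genes (rows, S phase above the line and mitotic below) in each of the 37 libraries (columns, in replicate order within 9 groups), as log2(FPKM + 1) by colour. The column of Adr 3 d replicate 3 is bright from top to bottom and that of Arrest 3 d replicate 4 mostly among the mitotic genes, while the other columns look alike.

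On day 3, single libraries rather than whole groups stood high. Adr 3 d replicate 3 had the highest value of all 37 libraries for 43 of the 44 genes, the exception being Cenpa, which peaked at 8.56 FPKM in Adr 1 d replicate 4. The same library was the highest for 15.03% of the 16530 genes tested. Arrest 3 d replicate 4 lay above the other 35 libraries for 31 of the 44 genes, 6 of 14 S phase and 25 of 30 mitotic, against 4.25% of the genes tested. Against the median of the other 35 libraries, Adr 3 d replicate 3 was 2.41 to 15.3 times as high for the S phase genes (median 5.43) and 1.20 to 375 times as high for 29 mitotic genes (median 24.1), with Ncapg left out because its median was 0. For Arrest 3 d replicate 4 the ratios were 1.03 to 4.68 (median 1.94) and 0.892 to 104 (median 7.24).

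Among the regulators of entry into S phase, E2f1, a transcription factor that drives S phase genes, reached 7.01 FPKM in Adr 3 d replicate 3, where the other 3 libraries of the group had 0.646, 1.56 and 0.518 FPKM. In Naïve it was 0, 0.120, 0.893, 0.699 and 0.0943 FPKM, and in Arrest 3 d 0.683, 0.234, 0.204 and 1.52 FPKM. Replicate 3 and, by less, replicate 2 of Adr and replicate 4 of Arrest lay above the Naïve range, and the groups overlapped. Ccne1, a cyclin that activates Cdk2, had 0.199, 1.03, 2.47 and 0 FPKM in Adr 3 d, 0.987, 0, 0.266 and 0.508 FPKM in Arrest 3 d and 0.264, 0.639, 0.172, 0 and 0.335 FPKM in Naïve. Its day 3 libraries held both values at 0 and values above every Naïve library. Ccne2, a second E-type cyclin gene, had 3.07 FPKM in Adr 3 d replicate 3, with 0.194 to 1.14 FPKM in the other 3.

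Among the replication genes, Mcm5, a subunit of the MCM helicase, had 0.926, 0.952, 8.54 and 0.779 FPKM in Adr 3 d, 0.927, 0.470, 1.30 and 2.69 FPKM in Arrest 3 d, and 1.87, 1.25, 0.515, 0.866 and 0.949 FPKM in Naïve. The 6 MCM genes were between 4.38 (Mcm2) and 15.8 FPKM (Mcm6) in Adr 3 d replicate 3, and between 1.93 (Mcm2) and 6.08 FPKM (Mcm6) in Arrest 3 d replicate 4. Mcm7 was the MCM gene that stood out least in the latter, with 2.81 FPKM against a median of 2.76 over all libraries. Pcna had 7.27, 11.1, 29.0 and 10.6 FPKM in Adr 3 d, 12.1, 11.2, 11.1 and 20.4 FPKM in Arrest 3 d, and 12.1, 11.04, 10.7, 16.6 and 8.36 FPKM in Naïve. In both day 3 groups 1 library lay above all Naïve libraries, and the other 3 lay within or below the Naïve range.

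The genes of deoxynucleotide supply followed the same libraries. Rrm2, the regulated subunit of ribonucleotide reductase, had 1.12, 1.47, 11.8 and 0.791 FPKM in Adr 3 d, 0.899, 1.89, 1.23 and 3.60 FPKM in Arrest 3 d, and 0.692, 0.750, 0.906, 0 and 2.01 FPKM in Naïve. Its ratio of 15.3 in Adr 3 d replicate 3 was the highest of the S phase genes, and Rrm1, which encodes the large subunit of the same enzyme, had 6.35 FPKM there. Tyms, thymidylate synthase, and Tk1, thymidine kinase, had 3.92 and 4.27 FPKM in Adr 3 d replicate 3 and 1.57 FPKM each in Arrest 3 d replicate 4.

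Among the mitotic cyclins and kinases, Cdk1, the kinase that starts mitosis, had 0.719, 0.266, 8.003 and 0.0404 FPKM in Adr 3 d and 0.764, 0.394, 0.704 and 2.39 FPKM in Arrest 3 d. Naïve libraries had 0.259, 0.0383, 0.0617, 0 and 0.316 FPKM, so that all 4 Arrest libraries lay above all 5 Naïve libraries, while the Adr libraries overlapped with them. Ccnb1 had 0, 0.124, 5.72 and 0.0284 FPKM in Adr 3 d, 0.399, 0, 0 and 1.58 FPKM in Arrest 3 d, and 0, 0.149, 0.0902, 0.610 and 0 FPKM in Naïve. It gave the highest ratio of the 44 genes, 375 in Adr 3 d replicate 3, against a median of the other 35 libraries close to 0. In that library Ccnb2, Ccna2, Plk1, Aurkb and Aurka had 12.4, 9.91, 9.95, 6.30 and 6.24 FPKM, and in Arrest 3 d replicate 4 they had 5.12, 4.53, 3.09, 2.10 and 1.30 FPKM. The other 3 libraries of Arrest 3 d had at most 0.0798 FPKM of Aurka.

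Mki67, which encodes the proliferation marker Ki-67, had 0.503, 0.463, 11.6 and 0.289 FPKM in Adr 3 d, 0.134, 0.373, 1.24 and 3.65 FPKM in Arrest 3 d, and 0.572, 0.876, 0.537, 1.49 and 0.658 FPKM in Naïve. The values of 11.6 and 3.65 FPKM rested on 2811 and 1195 fragments. Without replicate 3, the other 3 Adr libraries all lay below the 5 Naïve libraries, as did 1.65% of the genes tested. Top2a, the topoisomerase that untangles chromosomes, had 0.427, 0.524, 10.1 and 0.199 FPKM in Adr 3 d and 0.672, 0.588, 0.892 and 2.48 FPKM in Arrest 3 d. In Naïve it had 0.638, 1.07, 0.515, 0.506 and 0.619 FPKM, which overlapped with both groups.

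Checkpoint and anaphase genes, chromosome and kinetochore genes, spindle genes and cytokinesis genes were also high in Adr 3 d replicate 3. There the ubiquitin enzyme Ube2c had 15.5 FPKM, the anaphase activator Cdc20 15.7, the checkpoint genes Bub1b and Bub1 6.73 and 3.96, the passenger protein gene Birc5 10.2, the condensin core subunit Smc2 6.98 and the condensin subunit Ncapg 1.44. The kinetochore genes Spc24, Spc25, Cenpe and Cenpf had 5.52, 3.94, 3.82 and 1.72 FPKM. The spindle genes Tpx2, Kif11, Nusap1 and Hmmr had 9.19, 4.69, 4.46 and 3.92 FPKM, and the cytokinesis genes Anln, Prc1, Kif20a, Ect2 and Kif23 had 4.99, 3.64, 3.27, 2.99 and 2.65 FPKM. In Arrest 3 d replicate 4 these genes ranged from 0.595 (Kif20a) to 6.06 FPKM (Cdc20).

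A few mitotic genes stood out less in these libraries. Cenpa had 5.01, 3.71, 6.53 and 2.63 FPKM in Adr 3 d, 2.62, 4.36, 6.24 and 6.82 FPKM in Arrest 3 d and 4.19 to 6.06 FPKM in Naïve, so that both high libraries, and Arrest replicate 3, lay just above the Naïve range. Spc24 was lower in Arrest 3 d replicate 4 (1.04 FPKM) than in the other 3 libraries of that group (1.54 to 3.41 FPKM). Cenpf, a kinetochore and nuclear matrix gene, had 0.592, 0.862, 1.72 and 1.40 FPKM in Adr 3 d, where replicate 3 lay close to replicate 4, and 0.345, 0.300, 0.633 and 0.849 FPKM in Arrest 3 d.

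For each library the S phase genes and the mitotic genes were each averaged on the log2(FPKM + 1) scale and set against the Naïve mean. Adr 3 d replicate 3 was higher by 1.76 for the S phase genes and by 2.23 for the mitotic genes. Arrest 3 d replicate 4 was higher by 0.63 for the S phase genes and by 1.02 for the mitotic genes. The other 35 libraries lay between -0.19 and 0.46 for the S phase genes and between -0.25 and 0.20 for the mitotic genes. Summed over the genes, the mitotic genes reached 202 and 68.6 FPKM in these libraries, against 17.8 ± 2.95 FPKM in Naïve (SD, n = 5), and the S phase genes 127 and 54.6 FPKM, against 29.6 ± 3.91 FPKM. The mitotic genes thus exceeded the S phase genes in summed level in both libraries, where in Naïve the order was the opposite. Without Pcna, the S phase sum in Naïve was 17.8 ± 1.88 FPKM, level with the mitotic sum, which was 12.9 ± 2.74 FPKM without Cenpa. In the high libraries these reduced sums were 97.7 and 34.3 FPKM for the S phase genes, and 196 and 61.8 FPKM for the mitotic genes. These scores are descriptions and carry no test.

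**Figure D2:**
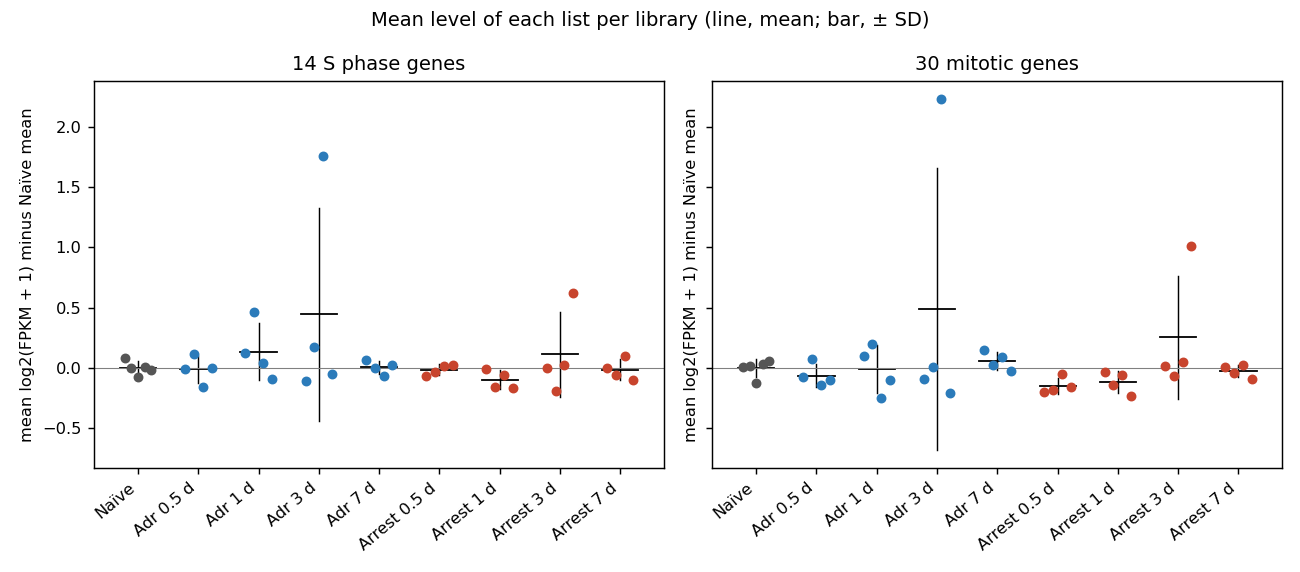
Mean log2(FPKM + 1) of the 14 S phase genes and of the 30 mitotic genes in each library, relative to the Naïve mean, by group (points, libraries; line, mean; bar, ± SD). On day 3 a single Adr library (1.76 and 2.23) and a single Arrest library (0.63 and 1.02) stand above the rest.

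The difference between the lists, S phase minus mitotic, was small in most groups on this log2 scale, which understates differences of low genes. It was 0.13 ± 0.05 in Arrest 0.5 d (SD, n = 4), where all 4 libraries lay between 0.07 and 0.18, and the Naïve SD was 0.06. In Adr 0.5 d, Adr 1 d and Adr 7 d it was 0.05 ± 0.05, 0.15 ± 0.15 and -0.05 ± 0.09. In Arrest 1 d and Arrest 7 d it was 0.02 ± 0.04 and 0.01 ± 0.04. On day 3 the high libraries set it. It was -0.04 ± 0.30 in Adr and 0.10 ± 0.10 without replicate 3 (n = 3), and -0.14 ± 0.17 in Arrest and -0.06 ± 0.06 without replicate 4 (n = 3).

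Marker genes of other cell types moved in the same libraries. The 7 macrophage markers (Adgre1, Csf1r, C1qa, C1qb, C1qc, Mrc1 and Cd68) summed to 1063 FPKM in Adr 3 d replicate 3 and 538 FPKM in Arrest 3 d replicate 4, against 158 to 413 FPKM in the other 35, with all 7 and 5 of the 7 genes above every one of those 35. The 5 monocyte markers (Ly6c2, Ccr2, Plac8, Chil3 and Fn1) summed to 158 and 53.0 FPKM, against 4.36 to 31.7 FPKM. Most of both sums came from Fn1, the fibronectin gene, with 99.9 and 34.3 FPKM, against a median of 5.59 FPKM in the other 35. The 7 fibroblast markers summed to 1143 and 657 FPKM, against 248 to 590 FPKM, with 3 fibroblast genes above the other 35 in each. These were the collagen genes Col1a1 (394 and 101 FPKM, against at most 43.2 FPKM elsewhere), Col1a2 and Col3a1. The other fibroblast markers, Pdgfra, Dcn, Lum and Tcf21, lay within the range of the other 35 in both libraries. The 5 atrial markers summed to 485 and 135 FPKM, against a median of 37.3 FPKM (11.8 to 693) in the other 35 and 13.8 to 32.4 FPKM in Naïve. Of these, Nppa, the gene of atrial natriuretic peptide, had 169 and 129.9 FPKM, above all 35 others (at most 95.7), and Myl7, the atrial myosin light chain, had 225 and 4.43 FPKM, against a median of 4.38 FPKM. The 7 endothelial markers summed to 208 and 188 FPKM, within 167 to 309 FPKM.

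Markers of blood cells and their precursors were also read. All 5 granulocyte precursor genes were at 0 in both libraries, the 6 thymocyte genes summed to 0.398 and 0.588 FPKM with 4 and 3 of them at 0, against a median of 0.0165 FPKM (0 to 1.07) in the other 35, and the 6 erythroid precursor genes summed to 12.4 and 21.2 FPKM, against 14.4 to 40.8 FPKM in the other 35. T cell, B cell and natural killer cell markers summed to 4.29, 4.91 and 4.52 FPKM in Adr 3 d replicate 3, above the other 35 (at most 2.72, 4.09 and 2.72 FPKM). In Arrest 3 d replicate 4 they summed to 0.695, 1.53 and 1.13 FPKM, within those ranges. The part of any cell type in the level of the proliferation genes was not tested. In whole tissue, fewer cells of a type and less RNA per cell cannot be told apart.

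**Figure D3:**
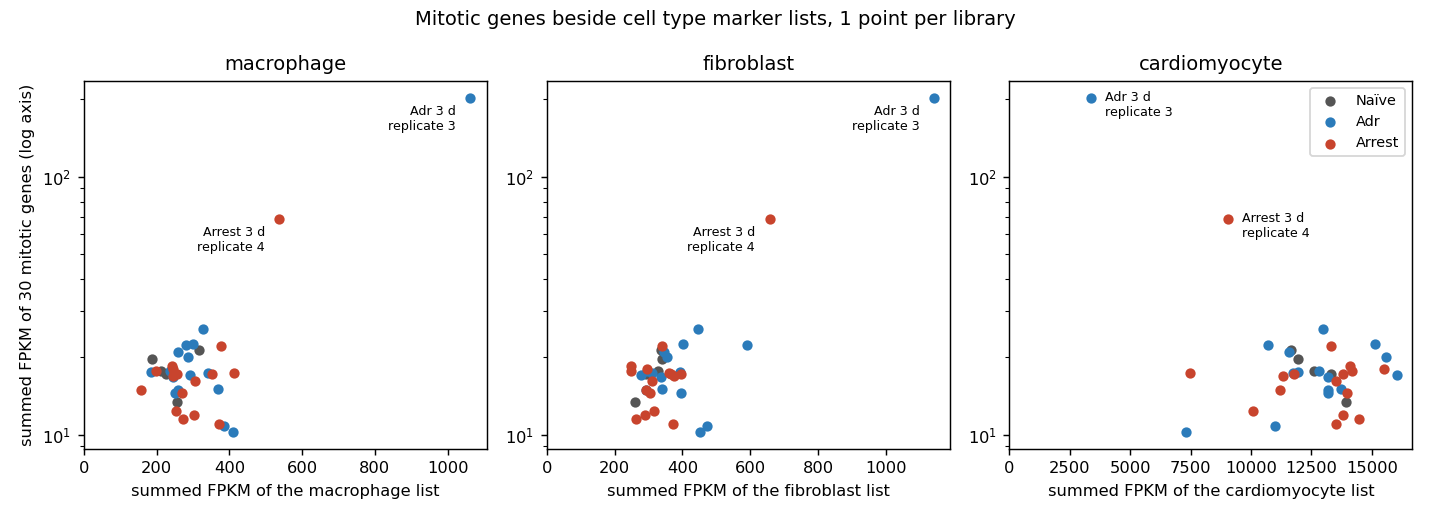
Summed FPKM of the 30 mitotic genes (log axis) against the summed FPKM of the macrophage, fibroblast and cardiomyocyte markers, 1 point per library, with the 2 high day 3 libraries marked. In both marked libraries the only fibroblast genes above all unmarked libraries were the collagen genes Col1a1, Col1a2 and Col3a1. Adr 3 d replicate 3 combines 202 FPKM of mitotic genes with 1063 FPKM of macrophage, 1143 FPKM of fibroblast and 3377 FPKM of cardiomyocyte markers, and Arrest 3 d replicate 4 is second in the first 3, with 68.6, 538 and 657 FPKM, while its 9036 FPKM of cardiomyocyte markers lies above those of Adr 3 d replicate 4 (7302) and Arrest 3 d replicate 1 (7484).

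Whether the day 3 groups differed from Naïve was tested with limma on log2(FPKM + 1), with Benjamini-Hochberg adjustment over all genes tested. In Adr 3 d no member passed an adjusted p of 0.05, nor did any other gene (0% of 16530). At an unadjusted p of 0.05 there were 10 members, all higher, and limma-voom on the fragments recovered from the values also called 0, with 5 members at that unadjusted level. Counts at an unadjusted p, here and below, stand without the share of all genes at that level and cannot be set against it. The shares of all genes that passed refer to the adjusted p. Of the 36 members tested, 34 had a positive difference, with a median of 0.48 (0.41 for S phase and 0.52 for mitotic genes) where the median of all genes was 0.02. Without replicate 3, 16 of 36 were positive, the median was -0.02, and 0 members and 0% of genes passed, with 1 member at an unadjusted p of 0.05.

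The difference from Naïve of single members in Adr 3 d changed accordingly. E2f1 had a log2 difference of 1.02 ± 0.30 (SE) with an adjusted p of 0.171 by limma with Benjamini-Hochberg adjustment, and 0.49 without replicate 3. Cdk1 had 0.91 ± 0.34 (adjusted p = 0.231) and 0.22 without it, and Rrm2 0.90 ± 0.37 (adjusted p = 0.266) and 0.26. For Mki67 (0.44 and -0.34), Top2a (0.48 and -0.27) and Mcm5 (0.47 and -0.12) the sign turned when that library was left out.

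In Arrest 3 d, 0 of the 36 members passed with all libraries, where 0.139% of all genes did. At an unadjusted p of 0.05 limma had 1 member, and limma-voom called 0, with 4 members at that level. Positive differences from Naïve were found in 26 of 36, with medians of 0.07 for S phase and 0.36 for mitotic genes. Cdk1 had a log2 difference of 0.78 ± 0.34 (adjusted p = 0.290, limma with Benjamini-Hochberg adjustment). It was the only member with all 4 libraries above Naïve, as were 1.74% of the genes tested.

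With Adr 3 d replicate 3 left out, the SE of Cdk1 was 0.18 in place of 0.34, since the fit shares 1 estimate of the spread over all 9 groups. In that fit Cdk1 passed in Arrest 3 d (0.78 ± 0.18, adjusted p = 0.0309), as did 1.15% of all genes. With Arrest 3 d replicate 4 also left out, a choice made after its values were seen, Cdk1 had 0.51 ± 0.16 (adjusted p = 0.127) and 0 members passed, with 5 at an unadjusted p of 0.05, where 0.416% of all genes passed. Then 18 of 35 members were positive, with a median of 0.02. The 3 remaining Arrest libraries still lay above all 5 Naïve libraries for Cdk1, as did 3.01% of the genes tested.

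**Figure D4:**
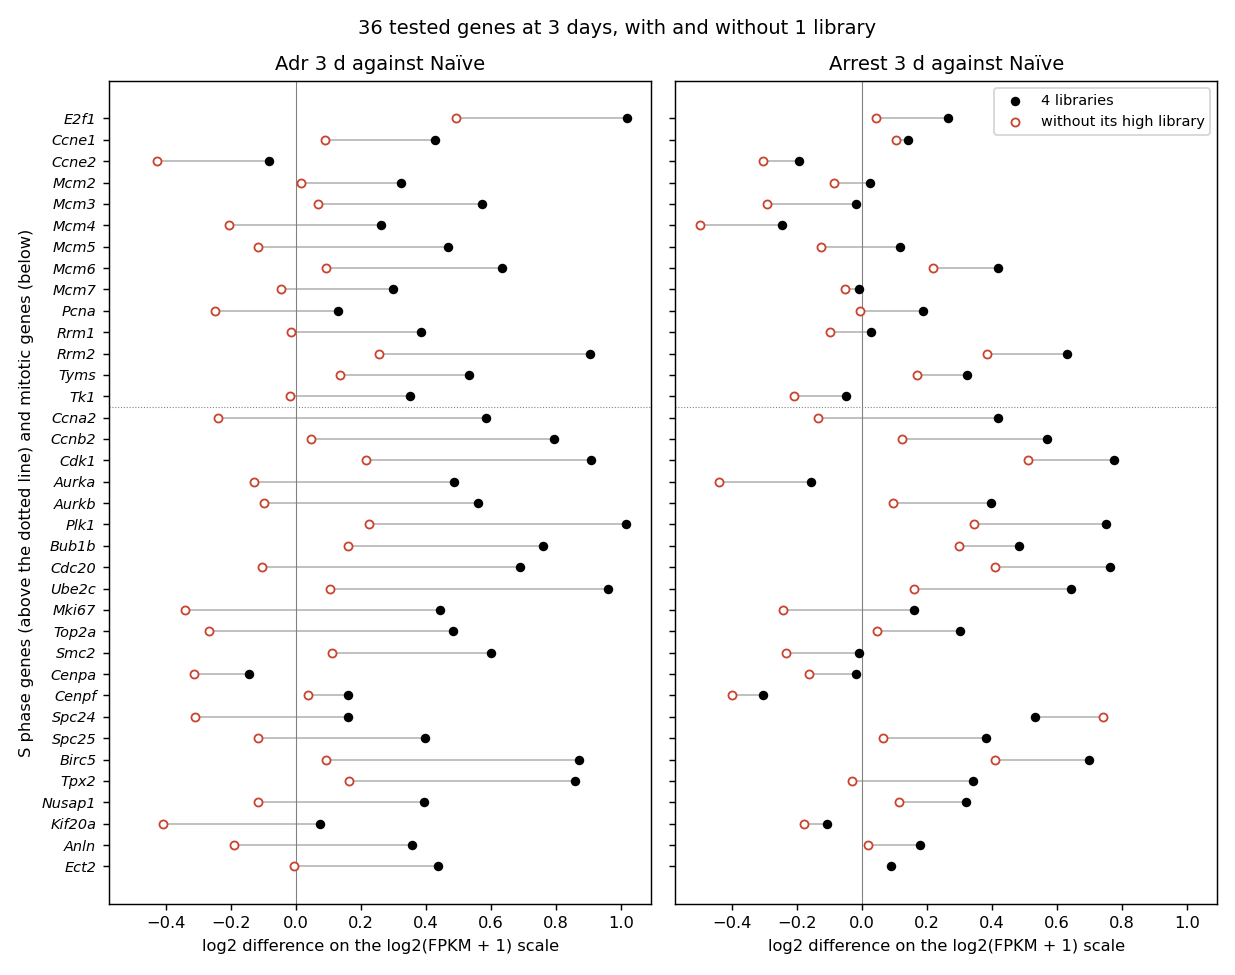
Log2 difference from Naïve of the 36 tested genes on day 3 in Adr and in Arrest, on the log2(FPKM + 1) scale. Filled points use all 4 libraries, and open points leave out replicate 3 in Adr, or both high libraries in the Arrest panel, where Ect2 is not tested and has no open point. In Adr 34 filled and 16 open points lie above 0, and in Arrest 26 of 36 and 18 of 35.

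Earlier after arrest, on days 0.5 and 1, the members that stood apart from Naïve were lower. Cenpf had 1.25, 0.543, 0.493, 1.62 and 0.698 FPKM in Naïve, 0.287, 0.149, 0.425 and 0.108 FPKM in Arrest 0.5 d, and 0.0692, 0.105, 0.135 and 0.267 FPKM in Arrest 1 d. All early Arrest libraries lay below all Naïve libraries. In Arrest 1 d Cenpf fell by 0.71 ± 0.18 on the log2 scale (adjusted p = 0.0160, limma with Benjamini-Hochberg adjustment), the 1 member of 36 that passed, where 7.11% of all genes passed. In Arrest 0.5 d the difference was -0.60 ± 0.18 (adjusted p = 0.0648), and 0 members passed, with 1 at an unadjusted p of 0.05, where 3.21% of all genes passed. limma-voom called 0 members on either day, with 1 at an unadjusted p of 0.05 on each.

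The Cenpf call in Arrest 1 d was lost with a trend on gene length removed (-0.54, adjusted p = 0.0885, limma with Benjamini-Hochberg adjustment), without Arrest 1 d replicate 1 (-0.68, adjusted p = 0.0542), with limma-voom (adjusted p = 0.0609), in a fit of the 2 groups alone (adjusted p = 0.0562) and with the number in the sample description, whose meaning is not stated, as a covariate (-0.59, adjusted p = 0.361). In Arrest 0.5 d it was gained without Naïve replicate 3 (-0.68, adjusted p = 0.0444). The longest of the 44 genes are Cenpf (15433 bases), Rrm1 (11012), Mki67 (10061), Anln (9063) and Top2a (9013), and Rrm1 and Anln overlapped with Naïve on both days. With the length trend removed, Mki67 had differences of -0.53 and -0.50 on days 0.5 and 1, and Top2a -0.44 and -0.45.

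Mki67 had 0.142, 0.200, 0.256 and 0.139 FPKM in Arrest 0.5 d and 0.167, 0.122, 0.269 and 0.164 FPKM in Arrest 1 d, all below the lowest Naïve library (0.537 FPKM). Its log2 differences from Naïve were -0.60 on both days (adjusted p = 0.454 and 0.405, limma with Benjamini-Hochberg adjustment). Top2a had 0.166, 0.190, 0.214 and 0.112 FPKM in Arrest 0.5 d and 0.254, 0.0646, 0.155 and 0.0785 FPKM in Arrest 1 d, from 21 to 30 and from 9 to 30 fragments a library. Every one of these lay below the Naïve minimum of 0.506 FPKM, with log2 differences of -0.50 and -0.54 (adjusted p = 0.482 and 0.391, limma with Benjamini-Hochberg adjustment). Mcm2 had 0.900, 0.874, 0.567 and 0.424 FPKM in Arrest 1 d, below the Naïve range of 0.995 to 1.97 FPKM, with a difference of -0.43 (adjusted p = 0.235, limma with Benjamini-Hochberg adjustment).

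In counts, 3 of 36 members (Mki67, Top2a and Cenpf) lay below Naïve without overlap in Arrest 0.5 d, against 3.71% of the genes tested, and 4 of 36 (these and Mcm2) in Arrest 1 d, against 4.8%. In both groups 0 members lay above Naïve without overlap. On the log2(FPKM + 1) scale, which understates differences of low genes, the medians over the 36 members were -0.06 and -0.16, with 11 and 12 positive. By limma-voom the differences on days 0.5 and 1 were -2.11 and -2.14 for Mki67, -2.01 and -2.46 for Top2a, and -2.10 and -2.63 for Cenpf. Their SE were 0.65 to 1.54, and none passed.

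The test of these genes depended on the spread contributed by the high day 3 libraries. Without Adr 3 d replicate 3, Cenpf fell in Arrest 0.5 d (adjusted p = 0.0425) and in Arrest 1 d (adjusted p = 0.00974), and Top2a fell in Arrest 1 d (adjusted p = 0.0389), all by limma with Benjamini-Hochberg adjustment. That is 1 of 36 members where 5.5% of all genes passed on day 0.5 and 2 of 36 where 10.4% passed on day 1. With Arrest 3 d replicate 4 also left out, Cenpf, Mki67 and Top2a fell in Arrest 0.5 d (adjusted p = 0.0404, 0.0360 and 0.0273) and in Arrest 1 d (adjusted p = 0.00934, 0.0232 and 0.0103), where 5.63% and 10.5% of all genes passed. The log2 differences themselves are the same in these fits, since the libraries compared are the same.

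**Figure D5:**
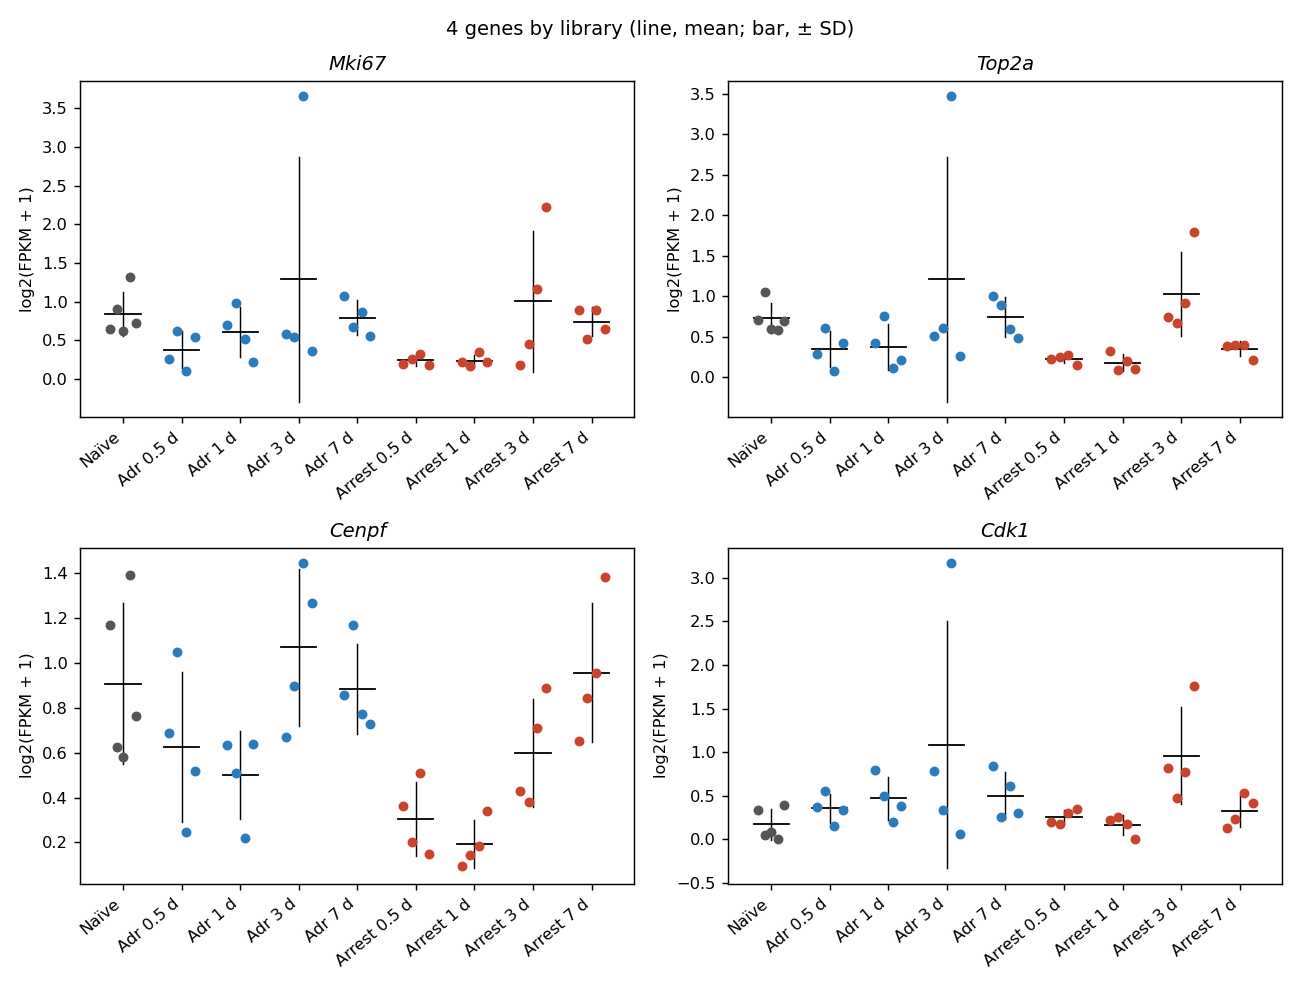
Log2(FPKM + 1) of Mki67, Top2a, Cenpf and Cdk1 in each library by group (points, libraries; line, mean; bar, ± SD). In Arrest 0.5 d and 1 d all libraries of Mki67, Top2a and Cenpf lie below all 5 Naïve libraries, and in Arrest 3 d all libraries of Cdk1 lie above them.

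Of 19 lists of cell type markers, 16 overlapped with Naïve in their summed level in each early Arrest group. In Arrest 0.5 d the monocyte sum, which includes Fn1, lay above Naïve (8.19 to 24.3 against 5.94 to 7.22 FPKM). The liver sum also lay above (0.608 to 1.23 FPKM against 0), and the pericyte and smooth muscle sum lay below (201 to 229 against 231 to 352 FPKM). In Arrest 1 d the atrial sum (32.7 to 72.7 against 13.8 to 32.4 FPKM) and the liver sum (0.520 to 2.57 FPKM against 0) lay above, and the erythroid precursor sum below (16.9 to 22.9 against 24.8 to 38.0 FPKM). Cardiomyocyte markers summed to 11670 to 13928 FPKM in Naïve, 10087 to 14450 FPKM in Arrest 0.5 d and 13503 to 15518 FPKM in Arrest 1 d. Endothelial markers summed to 201 to 210, 204 to 251 and 167 to 232 FPKM in the same groups, macrophage markers to 188 to 317, 254 to 354 and 245 to 372 FPKM, and fibroblast markers to 261 to 341, 262 to 367 and 297 to 394 FPKM. Their part in the values of Cenpf, Mki67 and Top2a was not tested.

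The S phase genes with full values did not stand apart on these days. Mcm5 had 1.23, 1.35, 1.89 and 1.01 FPKM in Arrest 0.5 d and 0.516, 0.875, 0.523 and 0.546 FPKM in Arrest 1 d. Pcna had 16.2, 17.2, 11.4 and 13.9 FPKM in Arrest 0.5 d and 17.3, 10.5, 15.8 and 13.1 FPKM in Arrest 1 d, with log2 differences of 0.31 ± 0.23 and 0.26 ± 0.23. Both genes overlapped with Naïve. Rrm2 had 0.309, 0.576, 1.30 and 0.522 FPKM on day 0.5 and 0.386, 0.910, 0.754 and 0.298 FPKM on day 1. Ccne1 had 0.241, 0.0667, 0.0967 and 0.477 FPKM and 0.344, 0.0972, 0.145 and 0.332 FPKM on the same days. E2f1 had 0, 0.450, 0.347 and 0.320 FPKM and 0.484, 0.390, 0.221 and 0.579 FPKM. Each of these overlapped with Naïve.

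The mitotic kinase and its cyclin were scarce in early Arrest, as they were in Naïve. Cdk1 had 0.145, 0.132, 0.235 and 0.275 FPKM in Arrest 0.5 d and 0.170, 0.197, 0.125 and 0 FPKM in Arrest 1 d. Ccnb1 had 0, 0.0281, 0.0153 and 0.0104 FPKM and 0.0543, 0, 0.110 and 0 FPKM. These values overlapped with Naïve, in which 1 library of Cdk1 and 2 of Ccnb1 were at 0.

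In the Adr arm on days 0.5 and 1 the members stayed close to Naïve. In Adr 0.5 d 17 of 36 had a positive difference, with a median of -0.02, and 0 passed, also at an unadjusted p of 0.05 by limma, while limma-voom called 0 with 1 at that level, where 0.188% of all genes passed. In Adr 1 d 21 of 36 were positive, with a median of 0.05, and 0 passed, with 1 lower at an unadjusted p of 0.05 by limma and 1 by limma-voom, which called 0, where 0.69% of all genes passed. The member at that level by limma was Cenpf, with 0.551, 0.423, 0.165 and 0.558 FPKM and a difference of -0.40 (adjusted p = 0.292, limma with Benjamini-Hochberg adjustment). Without Adr 3 d replicate 3, 0 members passed in either group, with 3 in each at an unadjusted p of 0.05 (2 higher, E2f1 and Mcm6, and 1 lower), where 1.43% and 2.54% of all genes passed.

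E2f1 had 0.644, 1.21, 0.699 and 0.954 FPKM in Adr 0.5 d and 0.992, 1.45, 0.610 and 0.357 FPKM in Adr 1 d, mostly in the upper part of the Naïve range or above it, with log2 differences of 0.50 ± 0.30 and 0.45 ± 0.30 (adjusted p = 0.477 and 0.496, limma with Benjamini-Hochberg adjustment). Mki67 had 0.197, 0.545, 0.0730 and 0.452 FPKM in Adr 0.5 d and 0.622, 0.982, 0.438 and 0.166 FPKM in Adr 1 d. Top2a had 0.220, 0.522, 0.0593 and 0.342 FPKM in Adr 0.5 d and 0.347, 0.688, 0.0826 and 0.159 FPKM in Adr 1 d. Cenpf had 0.610, 1.07, 0.186 and 0.430 FPKM in Adr 0.5 d. These genes overlapped with Naïve in both groups. Most libraries of Mki67 in Adr 0.5 d, and of Top2a in both groups, nevertheless lay below the Naïve range. So did some libraries of Mki67 in Adr 1 d and of Cenpf in both groups.

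The other members read library by library also overlapped with Naïve in early Adr. Cdk1 had 0.293, 0.471, 0.108 and 0.266 FPKM in Adr 0.5 d and 0.731, 0.406, 0.151 and 0.307 FPKM in Adr 1 d. Ccnb1 had 0.0127, 0.0459, 0 and 0 FPKM and 0.210, 0, 0 and 0.101 FPKM on the same days. Rrm2 had 0.540, 0.768, 0.675 and 0.418 FPKM and 0.515, 1.70, 1.66 and 1.29 FPKM. Of Cdk1, 1 library of Adr 0.5 d and 2 of Adr 1 d lay above the Naïve range, while Ccnb1 and Rrm2 stayed within it. Mcm5 had 1.22, 1.36, 0.903 and 1.12 FPKM in Adr 0.5 d and 1.28, 2.70, 0.513 and 0.359 FPKM in Adr 1 d. Pcna had 13.2, 11.3, 12.02 and 12.1 FPKM and 16.2, 12.8, 14.9 and 13.1 FPKM. Ccne1 had 0.221, 0.509, 0.326 and 0.551 FPKM and 0.460, 0.946, 0.559 and 0.102 FPKM. Of Mcm5 and of Ccne1 a single Adr 1 d library stood above Naïve, of Mcm5 2 Adr 1 d libraries lay below it, and Pcna stayed within the Naïve range.

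By day 7 the levels were near those of Naïve. In Adr 7 d 21 of 36 members and in Arrest 7 d 19 of 36 had positive differences, with medians of 0.04 and 0.02. No member passed (0 by limma, also at an unadjusted p of 0.05, and 0 by limma-voom at either level) and 0% of all genes did. Mki67 had 1.11, 0.595, 0.818 and 0.473 FPKM in Adr 7 d and 0.865, 0.434, 0.852 and 0.567 FPKM in Arrest 7 d, and Cenpf had 0.813, 1.25, 0.710 and 0.656 and 0.569, 0.791, 0.938 and 1.60 FPKM. Both genes overlapped with Naïve. Top2a had 0.311, 0.323, 0.320 and 0.159 FPKM in Arrest 7 d, all below Naïve without overlap, as were 0.659% of the genes tested, whereas Adr 7 d had 1.01, 0.860, 0.516 and 0.404 FPKM.

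Among the S phase genes on day 7, E2f1 had 0.308, 0.503, 0.613 and 0.482 FPKM in Adr and 0.374, 0.522, 0.703 and 0.217 FPKM in Arrest. Ccne1 had 0.292, 0.344, 0 and 0.298 FPKM and 0.332, 0.261, 0.444 and 0.180 FPKM in the same order. Mcm5 had 0.875, 0.657, 1.33 and 1.13 FPKM and 0.850, 1.82, 1.11 and 1.12 FPKM. All of these lay within the Naïve range. Pcna had 11.6, 12.03, 10.8 and 10.5 FPKM in Adr and 13.6, 8.57, 10.3 and 10.8 FPKM in Arrest. Rrm2 had 1.82, 0.881, 0.568 and 2.39 FPKM and 0.532, 1.03, 0.667 and 0.431 FPKM. Here 1 Adr library of Rrm2 lay above Naïve and the others within its range. Cdk1 had 0.787, 0.198, 0.522 and 0.228 FPKM in Adr and 0.0897, 0.180, 0.449 and 0.332 FPKM in Arrest. Ccnb1 had 0, 0.145, 0.187 and 0.345 FPKM and 0.175, 0, 0 and 0.146 FPKM. Cdk1 overlapped with Naïve while 2 Adr and 2 Arrest libraries lay above it, and Ccnb1 lay within its range.

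Arrest was compared with Adr at the same time, since both arms share the puncture, the ventilation and the adrenaline. They differ in the potassium chloride, the arrest and the chest compressions, which cannot be told apart. No member passed on any day (0 by limma and by limma-voom). The share of all genes that passed was 0% on days 0.5, 1 and 3 and 0.00605% on day 7. On day 0.5 14 of 36 differences were positive (median -0.10) and on day 1 6 of 36 (median -0.19), with 0 members at an unadjusted p of 0.05 by either tool on both days. On day 7 13 of 36 were positive (median -0.05), with 0 at that level by either tool.

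On day 3 the comparison of the arms turned with a single library. With all libraries 4 of 36 members were higher in Arrest (median -0.27), and 2, Cenpf and E2f1, were lower at an unadjusted p of 0.05 (adjusted p = 0.900 for both, limma with Benjamini-Hochberg adjustment). limma-voom had 2 members at the same level. Without Adr 3 d replicate 3, 29 of 36 were higher in Arrest (median 0.31) and 7 reached an unadjusted p of 0.05, with Top2a at 0.57 and Cdk1 at 0.56 (adjusted p = 0.739 and 0.832), and 0 passed where 0% of all genes did. Without Arrest 3 d replicate 4 as well, 23 of 35 were higher (median 0.11).

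Within the arms, the members were followed from one time to the next. From day 1 to day 3 in Adr 32 of 36 differences were positive (median 0.48) with 0 passing, 6 at an unadjusted p of 0.05 (5 by limma-voom), and 0.0907% of all genes passing. From day 3 to day 7 in Adr 2 of 36 were positive (median -0.45), with 0 passing, 3 at that level (2 by limma-voom), and 0% of all genes. Without Adr 3 d replicate 3 the same step had 26 of 36 positive and a median of 0.10, with 0 passing, 1 at that level, and 0% of all genes. From day 1 to day 3 in Arrest 32 of 36 were positive (median 0.33), with 0 passing, 4 at that level (5 by limma-voom), and 0.175% of all genes. From day 3 to day 7 in Arrest 6 of 36 were positive (median -0.28), with 0 passing, 0 at that level (2 by limma-voom), and 0% of all genes. Without Adr 3 d replicate 3 the count at that level was 10. With both high libraries left out, 16 of 35 were positive there and the median was -0.04, with 0 passing, 5 at that level, and 0.00612% of all genes. Between days 0.5 and 1, 0 members passed in either arm, with 0 at an unadjusted p of 0.05 by either tool, where 0% of all genes passed.

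Without Adr 3 d replicate 3, Cdk1 and Top2a rose from day 1 to day 3 in Arrest, by 0.79 ± 0.19 (adjusted p = 0.0292) and 0.84 ± 0.18 (adjusted p = 0.0107, limma with Benjamini-Hochberg adjustment), 2 of 36 members where 1.71% of all genes passed. With both high libraries left out, 21 of 35 were positive (median 0.15) and 0 members passed between these days, with 2 at an unadjusted p of 0.05, and Top2a had 0.59 ± 0.16 (adjusted p = 0.0596) and Cdk1 0.52 ± 0.17 (adjusted p = 0.147), where 0.887% of all genes passed. In Adr between the same days, without replicate 3, 12 of 36 differences were positive and 0 passed, with 4 at an unadjusted p of 0.05, where 0.0122% of all genes passed. For Top2a the 4 Arrest libraries of day 3 (0.588 to 2.48 FPKM) lay above those of day 1 (0.0646 to 0.254 FPKM), and the same held for Cdk1 (0.394 to 2.39 against 0 to 0.197 FPKM).

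Genes around the 44 were read from 4 lists of other replication genes, other mitotic genes, regulators of G1 and inhibitors of the cycle. In Arrest 1 d 1 of 38 tested replication genes rose and 1 fell, 1 of 20 G1 regulators rose and 1 fell, 1 of 15 inhibitors rose, and 0 of 32 other mitotic genes passed, where 7.11% of all genes passed. In Arrest 0.5 d 1 of 20 G1 regulators rose and 1 fell, 1 of 15 inhibitors rose, and 0 passed in the other lists, where 3.21% of all genes passed. In Arrest 3 d 0 passed in the 4 lists, where 0.139% of all genes passed. The medians of the 4 lists on day 3 were 0.19, 0.38, 0.12 and 0.18 in Adr, and without replicate 3 they were -0.03, -0.11, -0.09 and 0.12. In Arrest on day 3 they were 0.10, 0.21, -0.04 and 0.10, and with both high libraries left out 0.02, -0.0041, -0.11 and 0.04.

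Without the high libraries some further genes of these lists passed, all by limma with Benjamini-Hochberg adjustment. Ncapd2, a condensin subunit, had 1.40 to 1.74 FPKM in Arrest 0.5 d against 2.25 to 3.45 FPKM in Naïve, and fell by 0.54 without Adr 3 d replicate 3 (adjusted p = 0.0374, against 0.172 with all libraries). Ncapd2 had 1.71 to 2.15 FPKM in Adr 0.5 d and 1.65 to 2.06 FPKM in Arrest 1 d. Both groups also lay below Naïve without overlap, as did 2.97% and 4.8% of the genes tested, but neither passed in that fit. Cks2, a subunit of cyclin-dependent kinases, had 0 to 0.882 FPKM in Arrest 1 d against 0.660 to 8.61 FPKM in Naïve, and Pbk, a mitotic kinase gene, had 0 to 0.361 against 0.297 to 2.59 FPKM. With both high libraries left out they fell by 1.29 and 0.78 (adjusted p = 0.0462 and 0.0254, against 0.220 and 0.294 with all libraries), although the groups overlapped for both genes. The highest Naïve value of both genes was that of replicate 4. In Adr 1 d Cks2 had 0 to 0.885 FPKM and Pbk 0.173 to 0.505 FPKM. In Arrest 3 d, Gins2, a subunit of the replication helicase complex, had 0.362 to 1.62 FPKM against 0 to 0.277 FPKM in Naïve, and Cdkn2c, an inhibitor of the G1 kinases, had 5.15 to 8.94 against 3.94 to 5.67 FPKM. They rose by 0.79 and 0.51 without Adr 3 d replicate 3 (adjusted p = 0.0259 and 0.0448), but did not pass with all libraries (adjusted p = 0.0981 and 0.128) or with both left out (0.74 and 0.41, adjusted p = 0.0680 and 0.146).

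Among the G1 regulators, Ccnd2, a D-type cyclin gene, had 13.8, 10.99, 10.95, 13.5 and 11.2 FPKM in Naïve, 5.21, 4.26, 7.58 and 5.67 FPKM in Arrest 0.5 d and 3.46, 5.43, 3.55 and 5.48 FPKM in Arrest 1 d. The groups did not overlap, and Ccnd2 fell by 0.99 ± 0.21 (adjusted p = 0.00802) and by 1.27 ± 0.21 (adjusted p = 0.000516, limma with Benjamini-Hochberg adjustment). The Adr libraries also lay below Naïve, with 8.07, 8.82, 4.98 and 4.54 FPKM on day 0.5 and 10.8, 8.89, 5.89 and 4.91 FPKM on day 1, as did 2.97% and 2.74% of the genes tested. There the differences were -0.82 and -0.65 (adjusted p = 0.0710 and 0.124), and without Adr 3 d replicate 3 that of day 0.5 passed (adjusted p = 0.0406) and that of day 1 did not (adjusted p = 0.0884). Arrest against Adr had differences of -0.16 and -0.62 (adjusted p = 1 and 0.604). Ccnd1, a related cyclin gene, had 15.3 ± 2.67 FPKM in Naïve (SD, n = 5), with differences of -0.48 and -0.52 that did not pass (adjusted p = 0.277 and 0.185). Myc, a growth transcription factor, had 0.612, 1.27, 2.86, 0 and 1.997 FPKM in Naïve, 3.28, 13.5, 2.37 and 4.53 FPKM in Arrest 0.5 d and 6.55, 4.26, 6.21 and 3.36 FPKM in Arrest 1 d, and rose by 1.46 ± 0.41 and 1.48 ± 0.41 (adjusted p = 0.0433 and 0.0240). In Adr it had 1.54 to 2.88 and 1.36 to 2.81 FPKM on these days, with differences from Naïve of 0.64 and 0.54 (adjusted p = 0.508 and 0.567), and Arrest against Adr had 0.82 and 0.95 (adjusted p = 1 and 0.728). The call of Ccnd2 on day 0.5 was lost without Arrest 0.5 d replicate 2 (-0.88, adjusted p = 0.0542). That of Myc was lost on day 0.5 without any 1 of Naïve replicates 1, 2 and 4, Adr 7 d replicate 3, Arrest 0.5 d replicates 1, 2 and 4 and Arrest 7 d replicate 4 (1.02 to 1.61, adjusted p = 0.0502 to 0.241), and on day 1 without Naïve replicate 1 or 4 or Arrest 1 d replicate 1 or 3 (1.22 to 1.39, adjusted p = 0.0560 to 0.0863). It was also lost on both days with limma-voom (adjusted p = 0.0812 and 0.0624), in a fit of the 2 groups alone (0.181 and 0.0633), with the description number as covariate (0.104 and 0.420) and without a filter (0.0864 and 0.0526), and on day 0.5 with the length trend removed (0.0657), with the replicate number as a block (0.0581) and with scaling by fragments on genes (0.0561).

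Cdkn1a, the inhibitor p21 that halts the cycle, had 14.05, 17.4, 17.8, 11.6 and 16.8 FPKM in Naïve, 57.2, 135, 39.9 and 57.9 FPKM in Arrest 0.5 d and 62.1, 66.7, 111 and 16.6 FPKM in Arrest 1 d. It rose by 2.01 ± 0.44 (adjusted p = 0.0107) and by 1.72 ± 0.44 (adjusted p = 0.0151, limma with Benjamini-Hochberg adjustment), although Arrest 1 d replicate 4 lay within the Naïve range. In Adr 0.5 d Cdkn1a had 22.2, 22.9, 68.4 and 70.9 FPKM, all above Naïve (as were 3.36% of the genes tested), and in Adr 1 d 17.9, 16.997, 30.1 and 38.7 FPKM, with differences of 1.32 and 0.64 (adjusted p = 0.168 and 0.520). Arrest against Adr had 0.70 and 1.08 (adjusted p = 1 and 0.725). Gmnn, which encodes geminin, an inhibitor of replication licensing, had 16.4, 21.5, 20.2, 26.5 and 23.7 FPKM in Naïve and 39.97, 28.3, 42.5 and 35.2 FPKM in Arrest 1 d, and rose by 0.73 ± 0.18 (adjusted p = 0.0133). In Adr 1 d it had 17.99 to 32.4 FPKM and a difference of 0.28 (adjusted p = 0.495), and Arrest against Adr had 0.45 (adjusted p = 0.725). On day 0.5 Gmnn had 27.8 to 36.2 FPKM in Adr and 27.4 to 36.8 FPKM in Arrest. Both groups lay above Naïve without overlap, as did 3.36% and 4.49% of the genes tested, but neither difference passed. Rfc1, the large subunit of the clamp loader of Pcna, had 5.25 to 6.88 FPKM in Naïve and 3.75 to 4.29 FPKM in Arrest 1 d, and fell by 0.45 ± 0.11 (adjusted p = 0.0146). In Adr 1 d it had 3.86 to 5.67 FPKM and a difference of -0.33 (adjusted p = 0.161), and Arrest against Adr had -0.12 (adjusted p = 0.896). In Adr 0.5 d Rfc1 had 3.69 to 5.18 FPKM, all below Naïve (as were 2.97% of the genes tested), without passing. Arrest 0.5 d had 4.01 to 5.28 FPKM, which overlapped with Naïve. The call of Rfc1 was lost with the description number as covariate (-0.38, adjusted p = 0.344). The call of Cdkn1a was lost without Arrest 0.5 d replicate 2 on day 0.5 (1.67, adjusted p = 0.0759), and on day 1 without Arrest 1 d replicate 1 (1.64, adjusted p = 0.0527) or 3 (1.37, adjusted p = 0.0966), with the description number as covariate (1.36, adjusted p = 0.378) and in a fit of the 2 groups alone (adjusted p = 0.0707). Gmnn lost its call without the same libraries of day 1 (0.68 and 0.65, adjusted p = 0.0528 and 0.0662), with the trend on gene length removed (0.57, adjusted p = 0.0687) and with the description number as covariate (0.90, adjusted p = 0.121).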

How the data were processed

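Groups were taken from the sample labels. Sequencing was done by Novogene. Per the study's methods, FastQC served as quality control, HISAT2 2.0.5 as aligner and DESeq2 for the tests of the authors, which are not used here. Their deposited table gives FPKM per gene and library, with gene lengths and symbols (0 per-sample columns unused). Genome build, annotation, counter and strand are not given in the sources used here, so genes that overlap others are uncertain. FPKM multiplied by gene length gave whole fragments in 100% of the values (tolerance 0.001), which set the depth of 13.2 to 30.2 M fragments.

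FPKM values were scaled by median ratios (the same factor in every library), converted with a pseudocount of 1 to log2(FPKM + 1), filtered at 0.5 FPKM in at least 4 libraries, and fitted in 1 limma 3.58.1 model (R 4.3.3, eBayes with trend) of 9 group means, with Benjamini-Hochberg adjustment within each of 18 comparisons and a threshold of 0.05. Differences on this scale understate those of low genes. The script was checked on simulated data. Other steps used Python 3.11.15 with pandas 2.3.3 and matplotlib 3.10.9.

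The members and lists were chosen with earlier results of these data known. Values of every library are given for members that passed against Naïve and for Mki67, Top2a, Ccnb1, Cdk1, Rrm2, Mcm5, Pcna, Ccne1 and E2f1. Of other genes, those of the 4 lists that passed against Naïve are named, with Ccnd1 and Cdkn1a. A gene outside this rule was named after its values were seen. Alternatives covered scaling, pseudocount, filter, weights, covariates, gene length, the test and left-out libraries.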

Additional observations from a re-analysis of the deposited data

Results flagged for a closer look

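In each group of 4 or 5 libraries the highest and lowest values of the genes described library by library and of both lists were examined for a gap to the next library that takes up most of the range of the group. The limits used mark about 1 in 20 groups where values follow a normal distribution and are independent. FPKM of low genes in the same libraries meet neither condition, so that rate is nominal. Of 108 groups of libraries 18 were marked. Of these, 9 were the third library of Adr 3 d, with Mki67 at 11.6, Top2a at 10.1, Ccnb1 at 5.72, Cdk1 at 8.003, Rrm2 at 11.8, Mcm5 at 8.54 and E2f1 at 7.01 FPKM, and with list means above Naïve by 1.76 (S phase) and 2.23 (mitotic) on the log2 scale. A further 3 were the fourth library of Arrest 3 d, with Top2a at 2.48 and Pcna at 20.4 FPKM and a mitotic list mean of 1.02. The markers that move with these libraries stand in the report, and their part was not tested.

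The others were single values. Top2a was high at 1.07 FPKM in Naïve replicate 2 and low at 0.159 FPKM in Arrest 7 d replicate 4. Ccnb1 was high at 0.610 FPKM in Naïve replicate 4, the library with the fewest genes above 0. Mcm5 was high at 0.875 FPKM in Arrest 1 d replicate 2, and Ccne1 was low at 0 FPKM in Adr 7 d replicate 3. The mitotic list was low at -0.12 in Naïve replicate 3.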

How the results depend on the processing

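Of 234 counts of members called under alternatives for 18 comparisons, 225 were within 1.5 times of the main count and 9 were not, and so were 660 of 666 with 1 library left out. In Arrest 0.5 d the count of 0 became 1 with quantile normalization, 1 with a pseudocount of 0.1, 3 without both high day 3 libraries and 0 to 1 with each library left out (1 without Naïve replicate 3 or Adr 3 d replicate 3). In Arrest 1 d the count of 1 became 0 with a filter of mean 1 FPKM, with the number in the sample description as covariate, with the gene length trend removed and with limma-voom, 3 without both high libraries, and 0 to 2 with each library left out (2 without Adr 3 d replicate 3, 0 without Arrest 1 d replicate 1). With each library left out, Arrest 3 d gave 0 to 1, and Arrest 3 d against Arrest 1 d 0 to 2, or 1 with library weights.

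For S phase minus mitotic, 106 of 120 values and all 296 with a library left out moved by less than the SD of the group itself. On day 3 the high libraries widen that SD, so the count cannot show stability there. In Adr 3 d the difference went from -0.04 to 0.10 without replicate 3, which counted as unmoved beside an SD of 0.30. The difference became in Adr 0.5 d 0.10 with quantile normalization, 0.17 with a pseudocount of 0.1, 0.15 with limma-voom and -0.061 with list medians. It became 0.37 and 0.58 in Adr 1 d, -0.17 and -0.29 in Adr 7 d, 0.40 and 0.56 in Arrest 0.5 d and 0.22 and 0.46 in Arrest 1 d with that pseudocount and with limma-voom. In Arrest 1 d it was 0.12 with the description number as covariate, and in Arrest 7 d -0.036 with limma-voom.

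Against Naïve in Adr 3 d the sign turned with library weights and without both high libraries for Mki67 (-0.11, -0.34), Top2a (-0.13, -0.27) and Mcm5 (-0.017, -0.12), and with each library left out they ranged from -0.34 to 0.75, -0.27 to 0.80 and -0.12 to 0.69. Of the other values of single genes, 20 lost and 9 gained a call. The causes were not tested.

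The replicate numbers do not pair the libraries. Of 144 pairs with the same number in different groups 11 correlated above 0.1 (median 0.0017), and 1 of 37 libraries correlated best with its own number. With the number as a replicate block, Cenpf in Arrest 1 d was -0.74 (adjusted p = 0.0266) and the count of members stayed at 1, while Myc in Arrest 0.5 d (1.58, adjusted p = 0.0581) lost its call. Depth limits the low genes, whose values rest on few fragments.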
